A study of Mus musculus with 4 samples.

Results

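The histone genes were taken from a table of read counts per gene as every row whose symbol starts with Hist1h, Hist2h, Hist3h or Hist4h, plus H2afx, H2afz, H2afy, H3f3a and H3f3b. This gave 75 of 54532 genes, with no filter on expression. The first 70 are named here the replication-dependent genes (6 for H1, 20 for H2A, 19 for H2B, 12 for H3 and 13 for H4), and the other 5 the replacement genes. At least 1 read was counted for 62 of the 70 replication-dependent genes and for all 5 replacement genes. A mean of at least 1 CPM (the count relative to library size) over the libraries was reached by 15 and 5. This filter used total counts, while the levels in CPM given below are after TMM scaling. The count table held 4 libraries of poly(A)-selected RNA from the mouse mesenchymal stem cell line C3H10T1/2, and was made to ask what DNMT1 loss does to expression with and without early osteoblast (OB) differentiation. The control library came from cells transfected with a control siRNA for 48 h and left uninduced, and the siDNMT1 library from cells treated in the same way with siRNA to DNMT1, the methyltransferase that maintains DNA methylation. The OB library came from cells given control siRNA and then kept for 3 days in medium with L-ascorbic acid (50 µM), β-glycerophosphate (10 mM), dexamethasone and penicillin-streptomycin. The siDNMT1_OB library is labelled as cells given DNMT1 siRNA followed by the same induction. By the labels no uninduced library was kept for the 3 further days. What is called OB induction below therefore cannot be told apart from longer culture and more time since transfection. All 4 came from 1 cell line, and each group held 1 library, so the differences below lack any replicate check and carry no p-value.

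Histones are the proteins around which DNA is wound, and bulk synthesis of H2A, H2B, H3, H4 and H1 accompanies DNA replication. Most mRNAs for these replication-dependent histones carry no introns and end just past a conserved stem-loop without a poly(A) tail, and they accumulate in S phase. Replacement histones are made through the cell cycle from ordinary polyadenylated mRNAs, and H2afx is a known case of a gene that yields both kinds of end. Selection with oligo(dT) enriches RNA with a poly(A) tail, so the values below do not measure the whole histone mRNA pool, and whether each counted histone read came from a polyadenylated transcript was not tested.

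The stem-loops of 7 members are shown because these genes share the element and differ in how far their annotated transcript runs on past it. The annotated transcripts of other genes described below, namely Hist1h2bc, Hist1h2bq, Hist1h2br, Hist1h3h, Hist1h3i and H2afz, held no stem-loop. Those of Hist1h3h and Hist1h3i end at the stop codon, so a stem-loop past it could not be seen. The sequences shown were read from GENCODE M21 transcripts on GRCm38, 5′ to 3′ on the transcript strand, with the 16 bases of the stem-loop in capitals.
Hist1h1c (chr13:23739507-23739532, plus strand): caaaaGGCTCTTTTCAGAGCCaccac
Hist2h3c2 (chr3:96238480-96238505, minus strand): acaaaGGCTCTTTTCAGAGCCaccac
Hist2h4 (chr3:96262934-96262959, minus strand): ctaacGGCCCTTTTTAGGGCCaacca
H2afx (chr9:44335235-44335260, plus strand): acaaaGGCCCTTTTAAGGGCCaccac
Hist1h2bk (chr13:22036295-22036320, plus strand): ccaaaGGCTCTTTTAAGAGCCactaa
Hist1h3c (chr13:23745042-23745067, minus strand): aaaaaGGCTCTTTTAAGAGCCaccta
Hist1h2ap (chr13:21833026-21833049, minus strand): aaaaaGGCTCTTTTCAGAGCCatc
A histone stem-loop was found in 47 members, 46 of them replication-dependent and the other one H2afx, and in 64 of 21901 genes with a protein-coding transcript (0.292%). The form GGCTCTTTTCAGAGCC was the most common, in 26 members, and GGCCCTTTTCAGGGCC was found in 7, all of them H4 genes. The annotated transcript ran 840 bases past the stem-loop in Hist1h1c, 377 in Hist2h3c2, 1257 in Hist2h4 and 822 in H2afx. It stopped 30 bases past it in Hist1h2bk, 74 in Hist1h3c and 3 in Hist1h2ap.

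The replication-dependent genes were therefore sorted by their annotated 3′ end, with a threshold of 100 bases that was set after the values had been seen. In 23 genes the transcript ended within 100 bases of the stem-loop, and in 17 it held no stem-loop and ended within 100 bases of the stop codon. These 40 are called short-ended. In 23 genes it ran further past the stem-loop, and in 4 (Hist1h2bc, Hist1h2bq, Hist1h2br and Hist2h2be) it held no stem-loop but a long 3′ end. These 27 are called long-ended, and the remaining 3 rows are pseudogenes. Where any transcript held a stem-loop, the gene was sorted by it. Hist1h2bp, with a stem-loop in 1 of its 2 transcripts, is thus short-ended, although its longest 3′ end is 150 bases and it has a poly(A) signal. A poly(A) signal, AATAAA or ATTAAA, lay in the last 50 bases of any annotated transcript in 2 of the 23 genes that end at the stem-loop. It was found in 12 of the 23 that run past the stem-loop and in 3 of the 4 with a long end only, against 50.2% of all protein-coding transcripts. The 17 others with a short end had 0, but their annotated transcripts stop at most 48 bases past the stop codon, and many at it. Their last 50 bases were thus mostly or wholly coding, and a signal or stem-loop further on could not be found. Read positions within a transcript were not analysed here, so an annotated end is not a measured one.

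The 100 bases before the annotated start are shown for Hist1h1c, Hist1h3h, Hist1h2bk and H2afz, which differed in how they moved under OB induction. They are from RefSeq promoters on GRCm38.p6, 5′ to 3′ on the gene strand, and capitals mark the pentamer CCAAT, the TATA element TATAAA or the octamer ATTTGCAT, on either strand.
Hist1h1c (chr13:23738707-23738806, plus strand): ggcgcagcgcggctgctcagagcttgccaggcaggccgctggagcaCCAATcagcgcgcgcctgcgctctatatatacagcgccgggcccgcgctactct
Hist1h3h (chr13:21717528-21717627, plus strand): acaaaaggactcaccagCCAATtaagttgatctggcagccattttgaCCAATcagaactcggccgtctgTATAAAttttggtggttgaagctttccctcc
Hist1h2bk (chr13:22035721-22035820, plus strand): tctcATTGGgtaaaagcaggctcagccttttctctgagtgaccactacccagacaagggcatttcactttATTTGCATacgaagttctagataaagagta
H2afz (chr3:137864387-137864486, plus strand): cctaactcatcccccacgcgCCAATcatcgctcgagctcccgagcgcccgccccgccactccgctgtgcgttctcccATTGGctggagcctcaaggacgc
A RefSeq promoter of 300 bases (250 before the start to 50 after it) was matched for 66 members. Among them CCAAT, the pentamer found in many histone and cell cycle promoters, was present in 56, against 37.4% of 32851 promoters of the same length. TATAAA was present in 36 members against 13.6%. The octamer ATTTGCAT, known from H2B promoters, was present in 15 members, among them 7 of the 16 H2B genes, against 1.74%. A match is a description of the letters and not of a bound site.

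The libraries held between 22296046 (OB) and 27367792 (control) counts. Dnmt1 mRNA, examined as a check of the labels, had 7195 counts in control and 3375 in siDNMT1, against 1931 in OB and 2492 in siDNMT1_OB. It was lower in siDNMT1 than in control (log2 fold change −1.01, 95% interval −1.07 to −0.95) and was not lower in siDNMT1_OB than in OB (0.13, 0.04 to 0.21). The last library is therefore called the library labelled siDNMT1_OB, and every direction in its comparison with OB (the OB pair) and in its comparison with siDNMT1 is subject to this. In bisulfite sequencing the study reports that regions losing methylation outnumbered those gaining it after DNMT1 depletion, and more so after induction. That measure was made on DNA, and the label of this RNA library was not tested by it. The 10 mesenchymal markers were all above the filter, with a summed level of 28105 to 34550 CPM, and in OB against control 7 of their values were positive and 3 negative. Of these Pdgfra, a growth factor receptor, was called higher in OB against control (2.47, with 3459 counts in control and 15936 in OB), while Thy1 gave 0.67 and Pdgfrb 0.54. By contrast the summed level was at most 1.03 CPM for 4 epithelial markers (Epcam and Krt18 at 0 counts), at most 3.76 CPM for 3 hematopoietic (in OB against control Cd68 gave 0.57, with 47 and 59 counts, and Lyz2, under the filter, 1.61, with 8 and 24) and at most 0.398 CPM for 3 endothelial markers. The floor was set at 3 counts, which is 0.111 CPM in control, 0.117 in siDNMT1 and 0.133 in OB, with 0.112 in the library labelled siDNMT1_OB. Intervals are exact 95% intervals of the counts and cover counting error only, since each group held 1 library. They take every read as independent, although reads carried no molecular identifiers and copies of the same molecule could not be told apart. In bulk RNA, fewer cells that express a gene and less RNA per cell cannot be told apart.

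The summed replication-dependent and replacement genes went in opposite directions under OB induction. The 70 replication-dependent genes held 2408 counts in control and 2049 in siDNMT1, against 3561 in OB and 3176 in the library labelled siDNMT1_OB, or 88.8, 80.0, 157 and 119 CPM. The 5 replacement genes held 41649, 37581, 20598 and 28781 counts, or 1536, 1467, 911 and 1075 CPM. Both induced libraries were thus higher than both uninduced ones in the first sum and lower in the second. Most single replication-dependent genes did not follow their sum. In OB against control 54 of the 70 had more than 3 counts in either library, and 17 of their values were positive and 37 negative. In OB against control the log2 ratio was 0.83 (0.75 to 0.90) for the replication-dependent sum and −0.75 (−0.78 to −0.73) for the replacement sum. In the library labelled siDNMT1_OB against siDNMT1 it was 0.57 (0.49 to 0.65) and −0.45 (−0.47 to −0.43). Of all reads counted for the members, the replication-dependent genes took 5.47% in control and 5.17% in siDNMT1, against 14.7% in OB and 9.94% in the library labelled siDNMT1_OB. This is a share of reads, and is not corrected for the longer replacement transcripts.

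**Figure D1:**
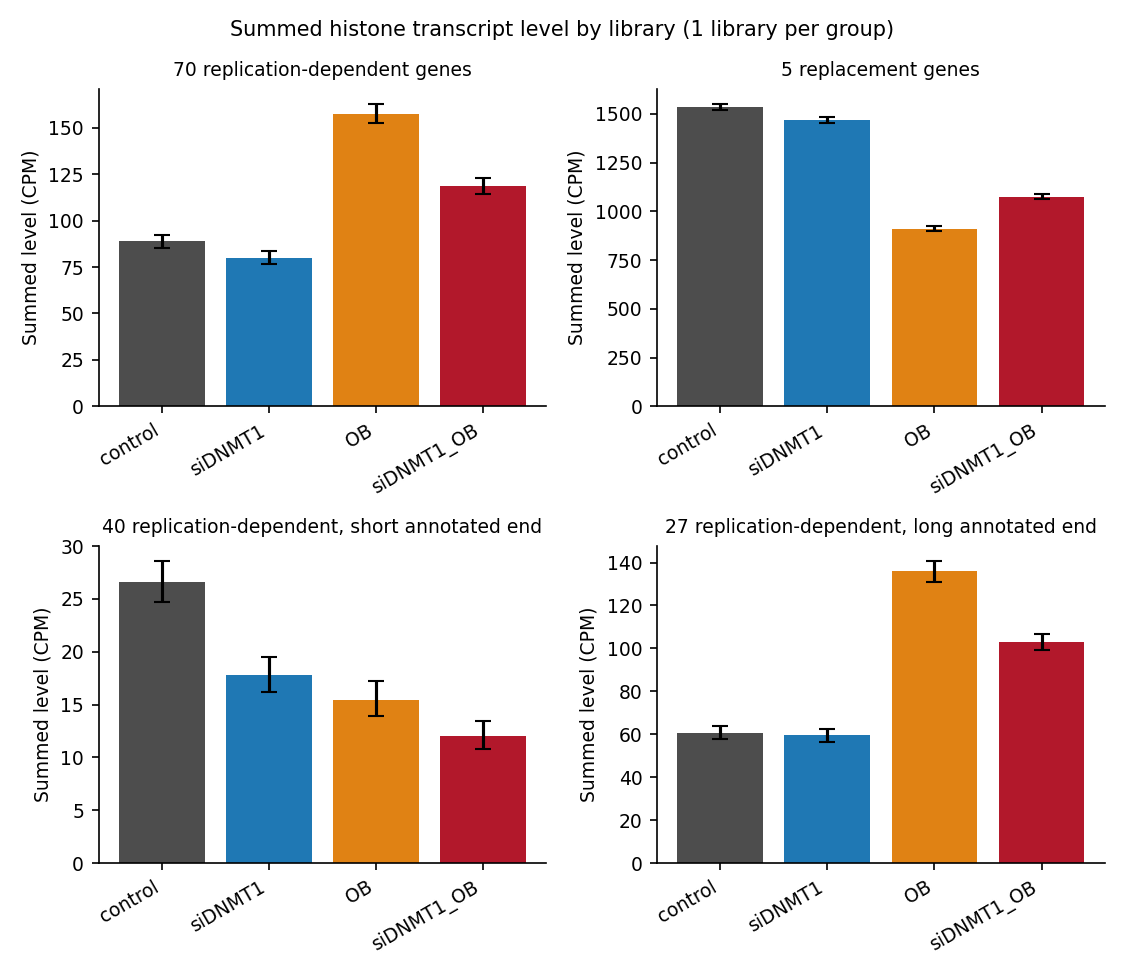
Summed level in CPM (vertical axes, linear from 0) in each of the 4 libraries for the 70 replication-dependent genes, the 5 replacement genes, and the replication-dependent genes split by annotated 3′ end. Bars are single libraries and error bars exact 95% counting intervals. The short-ended sum was 26.6 CPM in control and 15.5 in OB, while the long-ended sum was 60.6 and 136.

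The higher replication-dependent sum after induction rested largely on 2 genes. Hist1h1c and Hist1h2bc, a linker histone H1 gene and an H2B gene, took 32.1% of the replication-dependent counts in control and 42.0% in siDNMT1, against 54.9% in OB and 53.1% in the library labelled siDNMT1_OB. Without these 2 genes the log2 ratio was 0.23 (0.13 to 0.33) in OB against control and 0.26 (0.15 to 0.37) in the library labelled siDNMT1_OB against siDNMT1.

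The summed short-ended and long-ended genes went in opposite directions under OB induction. The 40 short-ended genes held 721 counts in control and 456 in siDNMT1, against 350 in OB and 323 in the library labelled siDNMT1_OB, or 26.6, 17.8, 15.5 and 12.1 CPM. The 27 long-ended genes held 1645, 1524, 3073 and 2752 counts, or 60.6, 59.5, 136 and 103 CPM. The uninduced control library was thus the highest of the 4 for the short ends, and the OB library the highest for the long ends. In OB against control the log2 ratio was −0.78 (−0.97 to −0.59) for the short ends and 1.16 (1.08 to 1.25) for the long ends. In the library labelled siDNMT1_OB against siDNMT1 it was −0.56 (−0.77 to −0.35) and 0.79 (0.70 to 0.88). The short-ended types differed in size. The 23 genes that end at the stem-loop gave −0.50 (−0.73 to −0.27) in OB against control. In the library labelled siDNMT1_OB against siDNMT1 they gave −0.20, with an interval that held 0 (−0.45 to 0.06). The 17 short-ended genes annotated only to the stop codon or shortly past it gave −1.33 and −1.31 in these inductions. Reads wholly past those annotated ends were not counted for them. Without Hist1h1c and Hist1h2bc the long ends gave 0.62 in both comparisons (0.49 to 0.75 and 0.48 to 0.76). Among the short ends Hist1h2bk, which went the other way, held 126 of the 721 counts in control and 165 of the 350 in OB. The short-ended genes went from 29.9% of the replication-dependent counts in control (exact interval 28.1 to 31.8) to 22.3% in siDNMT1, 9.83% in OB (8.87 to 10.9) and 10.2% in the library labelled siDNMT1_OB.

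Counted gene by gene, 27 short-ended genes had more than 3 counts in OB or control, and the interval of the ratio lay below 0 on the log2 scale in 13 of them, against 27.7% of the 19073 genes with more than 3 counts in either library, and above 0 in 1, Hist1h2bk, against 31.6%. Of 25 such long-ended genes it lay above 0 in 9 and below 0 in 4 (Hist1h2ae, Hist1h3d, Hist1h3e and Hist1h4d), of which the first share is near that of all genes and the second below it. In sign alone the short-ended genes had 2 positive and 25 negative values, and the long-ended ones were split, with 14 positive and 11 negative values. For the library labelled siDNMT1_OB against siDNMT1 the interval lay below 0 in 11 of 26 short-ended genes, against 24.5% of all such genes, and above 0 in 1, again Hist1h2bk. It lay above 0 in 10 of 21 long-ended genes, against 27.1%, and below 0 in 1, Hist1h2bh. These comparisons share no library.

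**Figure D2:**
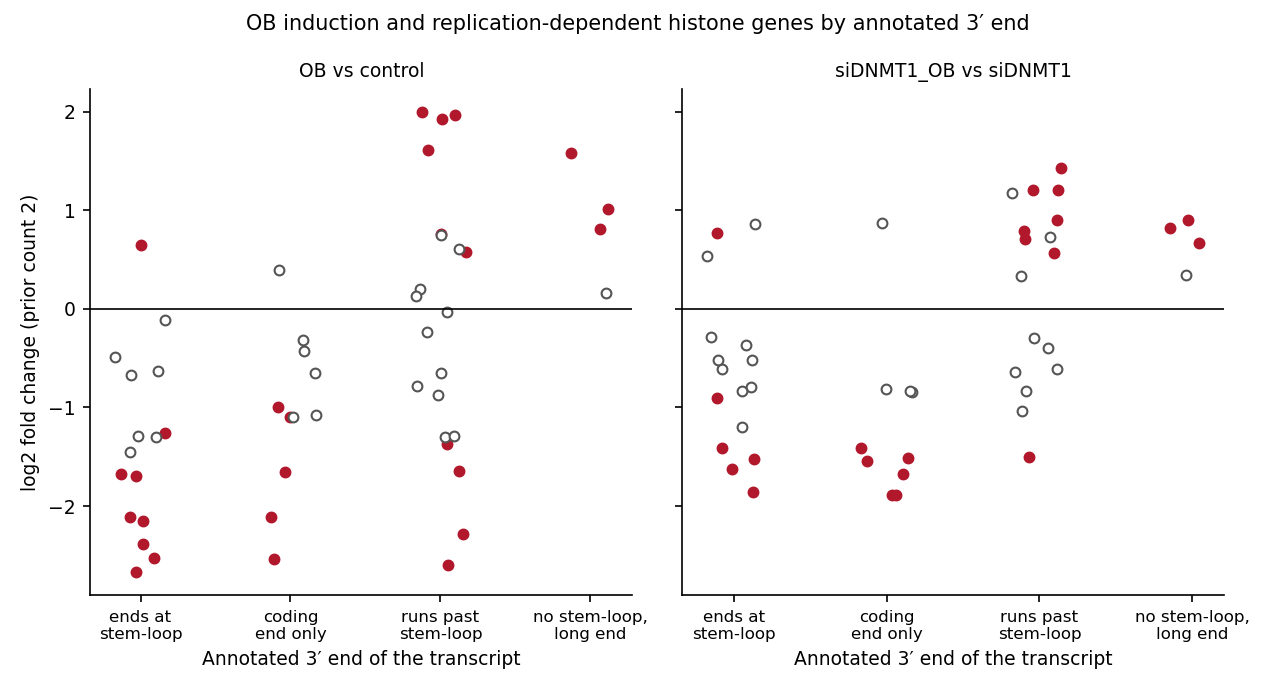
log2 fold change (vertical axis, prior count of 2) of each replication-dependent gene with more than 3 counts in either library, by annotated 3′ end (horizontal axis), for OB against control and for the library labelled siDNMT1_OB against siDNMT1. Each point is 1 gene, and points are filled where the 95% counting interval leaves out 0. In OB against control 13 filled points lie below 0 and 1 above it among the short ends.

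A gene was called at a log2 fold change of 1 or more in size whose interval left out 0. In OB against control, 6 of the 20 members above the filter were called higher, against 10.6% of 13233 genes, and 4 were called lower, against 7.10%. Over the 67 members with any count, 7 were called higher, against 9.12% of 27380 genes with a count, and 19 lower, against 4.67%. In the library labelled siDNMT1_OB against siDNMT1, 2 of the 20 members were called higher, against 6.82% of genes, and 2 lower, against 2.71%. Without the filter 3 were called higher, against 6.03%, and 12 lower, against 2.31%. Genes admitted without the filter can hold too few reads to be called at all.

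Among the long-ended genes, Hist1h1c (ENSMUSG00000036181, chromosome 13, 23738808 to 23740367, plus strand), which encodes a linker histone, was the most abundant replication-dependent gene. It had 478 counts in control and 596 in siDNMT1, against 1218 in OB and 1167 in the library labelled siDNMT1_OB, or 17.6, 23.3, 53.9 and 43.6 CPM. Both induced libraries lay above both uninduced ones. Its log2 fold change was 1.61 (1.46 to 1.77) in OB against control and 0.90 (0.76 to 1.05) in the library labelled siDNMT1_OB against siDNMT1. Hist1h2bc (chromosome 13, 23684199 to 23692908, plus strand), an H2B gene, had 294, 265, 738 and 520 counts. Its log2 fold change was 1.58 (1.39 to 1.79) in OB against control and 0.90 (0.69 to 1.13) in the other induction.

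Hist2h3c2 (chromosome 3, 96238108 to 96239127, minus strand), an H3 gene, was called higher in both inductions. It had 64 counts in control and 80 in siDNMT1, against 218 in OB and 228 in the library labelled siDNMT1_OB, with log2 fold changes of 2.00 (1.62 to 2.46) and 1.43 (1.07 to 1.83). It shares 61.6% of its 100-base windows with other genes, chiefly Hist2h3c1, which had no count. Hist2h4 (chromosome 3, 96261682 to 96263311, minus strand), an H4 gene with no shared window, had 11, 18, 41 and 46 counts, and log2 fold changes of 1.97 (1.17 to 3.27) and 1.20 (0.48 to 2.16). Hist1h2ac, an H2A gene, had 6, 8, 24 and 22 counts and was called higher in both as well (1.93 and 1.21). For Hist2h3c2 and Hist2h4 the CPM intervals of both induced libraries lay above those of both uninduced ones, while for Hist1h2ac those of siDNMT1 and the library labelled siDNMT1_OB overlapped.

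The H2B genes Hist1h2bq and Hist1h2br had 135 and 131 counts in control and 112 and 105 in siDNMT1, against 229 and 192 in OB and 208 and 175 in the library labelled siDNMT1_OB. Hist1h2bq was called higher in OB against control (1.01, 0.71 to 1.34), a call lost with a prior count of 5 (0.997). Hist1h2br stayed under the threshold (0.80, 0.49 to 1.15). They share 94.8% and 86.4% of their windows with other genes, above all with each other, so reads could be split between them. Hist1h2be and Hist1h2bg, also H2B genes, gave 0.57 (0.12 to 1.06) and 0.76 (0.31 to 1.24) in OB against control. Hist2h2be, Hist3h2a and Hist1h4i gave 0.16, 0.20 and −0.03 with intervals that held 0.

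**Figure D3:**
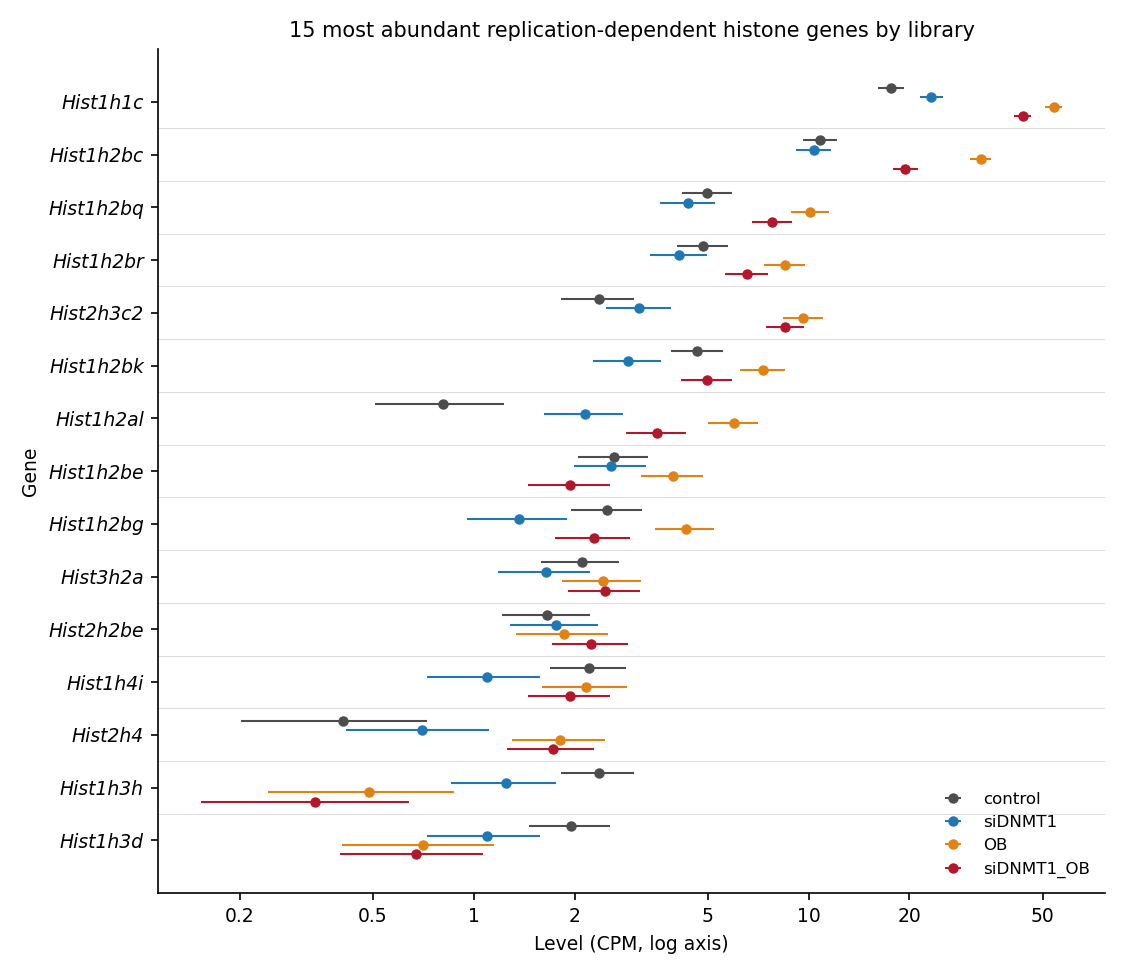
Level in CPM (horizontal log axis) of the 15 most abundant replication-dependent genes (vertical axis) in each library. Points are single libraries and lines exact 95% counting intervals. Hist1h1c runs from 17.6 CPM in control to 53.9 in OB, while Hist1h3h runs from 2.36 to 0.486.

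The short-ended genes called lower had at most 64 counts in any library. Hist1h3h (chromosome 13, 21717659 to 21718069, plus strand), an H3 gene, had 64 counts in control and 32 in siDNMT1, against 11 in OB and 9 in the library labelled siDNMT1_OB. Both induced libraries lay below both uninduced ones, with log2 fold changes of −2.11 (−3.35 to −1.34) and −1.68 (−3.15 to −0.79). It shares 92.0% of its windows with other genes. Hist1h3i, the H3 gene at chromosome 13, 21782960 to 21783370, had 45, 29, 5 and 9 counts, with log2 fold changes of −2.54 (−4.60 to −1.58) and −1.55 (−3.01 to −0.63). Hist1h3c, whose stem-loop is printed above and which shares 28.4% of its windows, had 33, 26, 5 and 6 counts, with −2.11 (−4.17 to −1.09) and −1.85 (−3.75 to −0.87).

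Several of the genes with the fewest reads were H2A and H2B genes. Hist1h2ap had 19 counts in control and 13 in siDNMT1, against 1 in OB and 3 in the library labelled siDNMT1_OB. Its ratio of OB to control was 0.0631, with a counting interval of 0.00152 to 0.397. Hist1h2bj had 17, 7, 1 and 2 counts, for a ratio of 0.0706 (0.00169 to 0.450). Hist1h2ag had 9, 8, 0 and 6 counts and was at least 2.50-fold lower in OB than in control, taken against 3 counts. Hist1h2an had 28, 16, 10 and 3 counts. Hist1h2af, with 5, 9, 2 and 1 counts, was called lower in the library labelled siDNMT1_OB against siDNMT1. At these depths the direction is given by a few reads per library.

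Some genes went against their end type. Hist1h2bk (chromosome 13, 22035870 to 22036345, plus strand), an H2B gene whose annotated transcript ends 30 bases past the stem-loop, had 126 counts in control and 74 in siDNMT1, against 165 in OB and 133 in the library labelled siDNMT1_OB. It gave 0.64 (0.31 to 1.00) in OB against control. It shares 70.8% of its windows with other genes, chiefly Hist1h2bq, a long-ended gene. Hist1h3d and Hist1h2ae, long-ended genes for H3 and H2A whose annotated ends lie 752 and 151 bases past the stem-loop, had 53 and 55 counts in control and 28 and 23 in siDNMT1, against 16 and 8 in OB and 18 and 15 in the library labelled siDNMT1_OB. Both were called lower in OB against control (−1.37, −2.37 to −0.64, and −2.29, −3.80 to −1.44). Hist1h4d, also long-ended, had 18, 8, 1 and 3 counts. Hist1h2al, an H2A row on chromosome 13 (51202727 to 51203065) annotated as a pseudogene, had 22, 55, 135 and 94 counts, and 2.77 (2.22 to 3.60) in OB against control, the highest value among the members called. Its exon overlaps Gm44341 on the other strand, and since the use of strand was not given its reads cannot be assigned to one of them.

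By histone type, OB against control gave 1.49 (1.34 to 1.64) for the summed H1 genes and 1.01 (0.89 to 1.12) for H2B. It gave −0.15 (−0.38 to 0.08) for H2A, −0.11 (−0.34 to 0.12) for H3 and 0.01 (−0.30 to 0.32) for H4, all with intervals that held 0. The H1 sum is nearly all Hist1h1c, without which it gave −0.40 (−1.04 to 0.23), and the other H1 genes had at most 24 counts in a library. Without Hist1h2bc the H2B sum gave 0.64 (0.49 to 0.79). By position, the 31 genes of chromosome 13 from 23531050 to 23934851, which include Hist1h1c and Hist1h2bc, gave 1.06 (0.96 to 1.16). Without these 2 genes the sign turned, to −0.45 (−0.65 to −0.25). The 19 genes from 21715763 to 21837530 gave 0.09 (−0.07 to 0.26), and the 5 genes from 22035164 to 22043676 gave 0.07 (−0.19 to 0.33). The 10 Hist2 genes on chromosome 3, of which 5 had no count, gave 1.58 (1.27 to 1.90), and 0.82 (0.32 to 1.33) without Hist2h3c2.

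There were 8 members that stayed at 0 in every library. In OB, the shallowest, the floor of 3 counts stands at 0.133 CPM and the exact interval of 0 counts reaches 0.163 CPM. For 5 of them (Hist2h2aa1, Hist2h2aa2, Hist2h3b, Hist2h3c1 and Hist2h2bb) every 100-base window is shared with another gene. The others were Hist1h4b, with 71.8% of windows shared, and Hist1h2aa and Hist1h2ba, known as histone genes of the testis. In all, 29 replication-dependent genes share at least 50% of their windows, and 26 overlap an exon of another gene. How reads with several positions were counted is not given in the sources used here, so the split of reads between near-identical members is uncertain. With the sharing genes left out, an alternative added after the data were seen, the 16 remaining short-ended genes gave −1.67 (−2.23 to −1.14) in OB against control and −1.26 (−1.86 to −0.69) in the library labelled siDNMT1_OB against siDNMT1. With the overlapping genes left out instead, 22 short-ended genes remained. Both falls were then smaller than in the full short-ended sum, with the values given in the section on processing.

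Compared per length in the control library, each replacement gene was above every replication-dependent gene. The level ran from 255 CPM per kb of exon for H3f3b, one of the genes for the replacement H3 variant, to 17.2 for H2afy, against 11.3 for Hist1h1c, 9.76 for Hist1h2bk, 9.38 for Hist1h2bc and 5.74 for Hist1h3h. In OB this order no longer held. Hist1h1c, at 34.5 CPM per kb, and Hist1h2bc, at 28.2, lay above H2afx (22.2) and H2afy (10.3), while H3f3b stood at 161 and Hist1h3h at 1.18.

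H2afx and H2afz were the replacement genes that were called. H2afx (ENSMUSG00000049932, chromosome 9, 44334694 to 44336077, plus strand) encodes H2A.X, the histone phosphorylated around DNA breaks. It had 2686 counts in control and 2802 in siDNMT1, against 694 in OB and 1444 in the library labelled siDNMT1_OB, or 99.0, 109, 30.7 and 54.0 CPM. Both induced libraries lay below both uninduced ones, and it was called lower in OB against control (−1.69, −1.81 to −1.57) and in the other induction (−1.02, −1.11 to −0.93). H2afz (chromosome 3, 137864487 to 137866922, plus strand) encodes H2A.Z, a variant found at promoters. It had 10388, 8955, 2938 and 5024 counts and gave −1.56 (−1.62 to −1.50) in OB against control and −0.90 (−0.95 to −0.85) in the other induction. H2afx is the replacement member with a stem-loop, so both classes under the rule hold genes with that element.

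H3f3b and H2afy, which encodes macroH2A, were lower by less than the size threshold. H3f3b (chromosome 11, 116021912 to 116027962, minus strand) had 20598, 17728, 10836 and 14617 counts and gave −0.66 (−0.70 to −0.63) in OB against control. H2afy (chromosome 13, 56073619 to 56136361, minus strand) had 3169, 2827, 1591 and 2092 counts and gave −0.73 (−0.82 to −0.64). H3f3a (chromosome 1, 180800832 to 180813943, minus strand), the second gene for the replacement H3 variant, stood apart with 4808, 5269, 4539 and 5604 counts. Its log2 fold change was 0.18 (0.12 to 0.24) in OB against control and 0.03 (−0.03 to 0.08) in the other induction, so the genes for the same H3 variant differed in direction in OB against control.

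**Figure D4:**
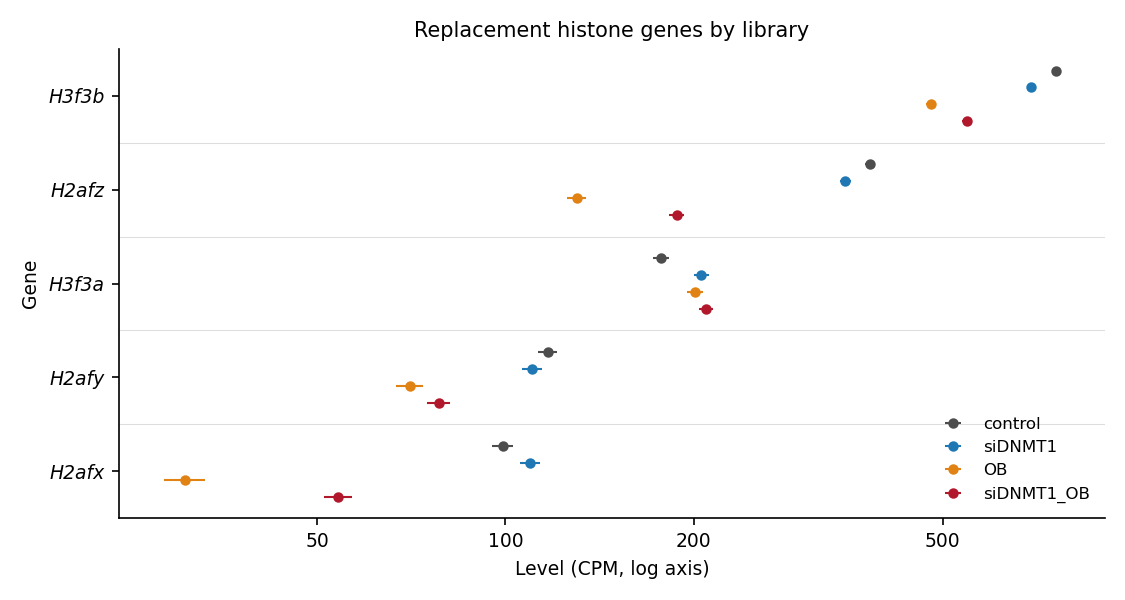
Level in CPM (horizontal log axis) of the 5 replacement genes (vertical axis) in each library. Points are single libraries and lines exact 95% counting intervals. H2afx runs from 99.0 CPM in control to 30.7 in OB, while H3f3a lies between 177 and 209 CPM in all 4 libraries.

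The DNMT1 siRNA comparisons were read by the same rule. In siDNMT1 against control 1 of the 20 members above the filter was called higher, Hist1h2al, against 1.87% of genes, and 0 lower, against 1.33%. Without the filter 1 was called higher, against 2.09%, and 3 lower (Hist1h2ae, Hist1h3e and Hist1h3g), against 1.87%. In the OB pair 0 of the 20 were called higher, against 2.35%, and 0 lower, against 1.36%, although Hist1h2be (−0.99, −1.54 to −0.51) was called lower with total count scaling (−1.02) or upper quartile scaling (−1.01). Without the filter 0 were called higher, against 2.05%, and 1 lower, Hist1h2an, against 2.31%. The replication-dependent sum was lower in siDNMT1 than in control (−0.15, −0.24 to −0.07) and also in the OB pair (−0.41, −0.48 to −0.34). Without Hist1h1c and Hist1h2bc it gave −0.38 (−0.49 to −0.27) and −0.35 (−0.45 to −0.25), larger in size than the 0.23 and 0.26 of the inductions.

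The short-ended sum gave −0.58 (−0.75 to −0.41) in siDNMT1 against control, while the long-ended sum gave −0.03 (−0.13 to 0.07). Without Hist1h1c and Hist1h2bc the long ends gave −0.31 (−0.46 to −0.17). In the OB pair the short and long ends gave −0.36 (−0.58 to −0.14) and −0.40 (−0.48 to −0.33). Hist1h1c was higher in siDNMT1 than in control (0.40, 0.22 to 0.58), and Hist1h2bc did not differ beyond its counting interval (−0.07, −0.31 to 0.18). In the OB pair they gave −0.30 (−0.42 to −0.19) and −0.75 (−0.91 to −0.58). Hist1h3e, which had 12 counts in control and 3 in siDNMT1, gave a ratio of 0.265 with a counting interval of 0.0479 to 0.981. Hist1h3g had 32 and 12 counts, and gave −1.20 (−2.43 to −0.34).

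The replacement sum gave −0.07 (−0.09 to −0.05) in siDNMT1 against control and 0.24 (0.21 to 0.27) in the OB pair. The first of these rests on H3f3b, without which the sum gave −0.0022 (−0.030 to 0.026) in siDNMT1 against control and 0.29 (0.26 to 0.33) in the OB pair. In the OB pair all 5 genes had intervals above 0, from 0.06 (0.0046 to 0.12) for H3f3a to 0.81 (0.68 to 0.95) for H2afx, with 0.53 (0.47 to 0.60) for H2afz. With total count or upper quartile scaling the interval of H3f3a held 0 there, and those of the other 4 genes stayed above 0. In siDNMT1 against control H3f3a (0.21, 0.16 to 0.27) and H2afx (0.14, 0.07 to 0.22) lay above 0, and H3f3b, H2afz and H2afy lay between −0.13 and −0.08, the last with an interval that held 0 under those 2 scalings. None of these reached the size threshold.

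**Figure D5:**
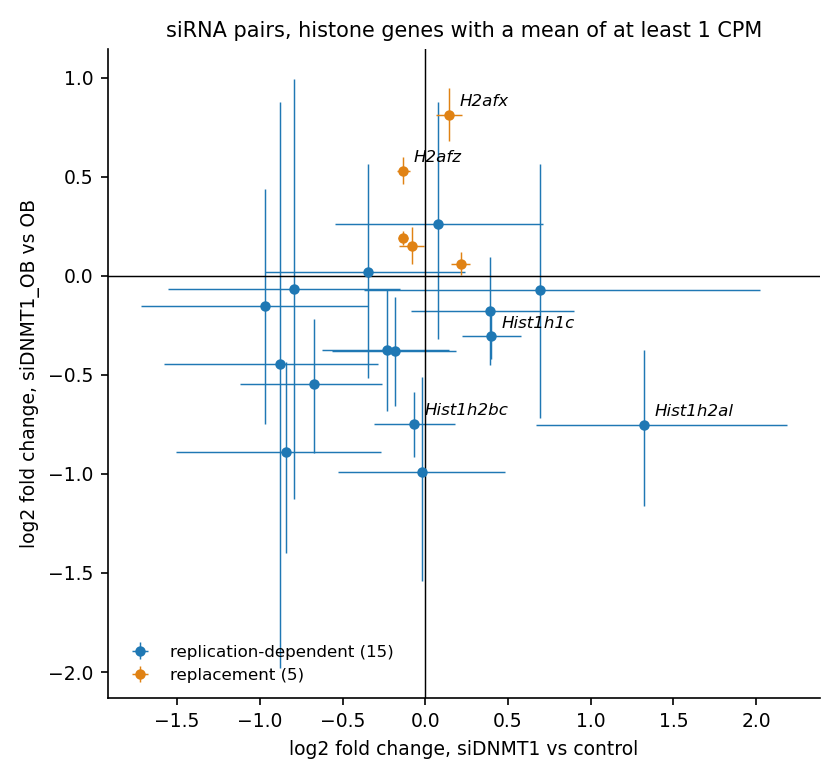
log2 fold change in siDNMT1 against control (horizontal axis) and in the OB pair (vertical axis) for the 20 members with a mean of at least 1 CPM. Lines are 95% counting intervals. All 5 replacement genes lie above 0 in the OB pair, from 0.06 to 0.81.

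Genes of DNA replication were read as context for the S phase histones. All 26 listed S phase genes passed the filter, and 24 were called lower, against 7.10% of all genes, and 0 higher in OB against control, with a median of −2.04 against 0.01 over all genes tested. Mki67, a proliferation marker, had 13598 counts in control and 11757 in siDNMT1, against 1909 in OB and 5034 in the library labelled siDNMT1_OB. Its log2 fold change was −2.57 in OB against control, with −2.80 for Mcm5, a subunit of the replicative helicase, and −2.54 for Cdc6, a replication licensing factor. In the library labelled siDNMT1_OB against siDNMT1, 6 of the 26 were called lower, against 2.71% of all genes, and all 26 values were negative, with a median of −0.72 beside −0.56 for the short-ended sum. In siDNMT1 against control 1 was called lower, against 1.33%, and 25 values were negative, with a median of −0.36 beside −0.58 for the short-ended sum. In the OB pair 8 were called higher, against 2.35%, and 0 lower, with a median of 0.81 beside −0.36 for the short-ended sum. The part of cell cycle position in the histone values was not tested.

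Genes for factors that act on histone mRNA were read in the same way. Of 17 tested genes for 3′ end processing and decay, 2 were called lower, against 7.10% of all genes, and 0 higher, against 10.6%, in OB against control, and 16 of the 17 values were negative (median −0.42). These were Slbp, the protein that binds the stem-loop (−1.15, with 2155 counts in control and 806 in OB), and Eri1, an exonuclease that acts on the histone mRNA end (−1.19). Lsm11, a subunit of the U7 particle that takes part in histone mRNA cleavage, gave −0.81. Of 21 histone chaperones, 8 were called lower and 0 higher, against the same shares (median −0.69). Asf1b, which carries H3 and H4, gave −2.41, and Chaf1a and Chaf1b, subunits of the complex that deposits histones at replication forks, gave −2.06 and −2.02. Of 6 tested histone genes outside the rule, 2 were called lower, against 7.10%, and 0 higher (median −0.60). These were Cenpa, the centromeric H3 variant (−2.25), and H1fx, a linker histone gene (−1.52), while H2afv, a second H2A.Z gene, gave −0.66. In siDNMT1 against control 1 of the 6 was called lower, against 1.33% of all genes. This was H2afj, a further H2A gene chosen after its values were seen, with 1382 counts in control and 598 in siDNMT1 (−1.12, −1.27 to −0.99) and −0.91 (−1.04 to −0.78) in the OB pair. Of the 21 chaperones 1, Asf1b, was called higher in the OB pair (1.03), against 2.35%, and 16 values there were positive, with a median of 0.18.

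RNA that lacks a poly(A) tail was read as a sign of carry-over through the selection. Of 19 listed symbols 18 were in the table, 0 passed the filter, and their summed level was 0.664 CPM in control and 0.781 in siDNMT1, against 0.752 in OB and 1.16 in the library labelled siDNMT1_OB. Rn7sk, the most counted of them, had 12, 15, 9 and 17 counts. The mitochondrial rRNAs mt-Rnr1 and mt-Rnr2 together stood at 471, 537, 491 and 586 CPM. The carry-over level in OB lay between those of the uninduced libraries and was highest in the library labelled siDNMT1_OB, and its part in the histone values was not tested.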

How the data were processed

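Poly(A) RNA of 4 libraries, 1 per group by the labels, was analysed. Per the study's methods, mRNA was selected with oligo(dT) beads, made into TruSeq libraries, sequenced from both ends and processed with Trimmomatic (trimming), HISAT2 (alignment) and featureCounts (counting). The build in the submitters' processing notes is mm10, and tool versions, strand use and how multi-mapping reads were treated are not given in the sources used here. The authors deposited raw read counts per gene, with no normalization. From these counts, TMM factors (0.991 to 1.01) were obtained with edgeR 4.0.16 in R 4.3.3 from the 13233 genes with a mean of at least 1 CPM. The study used edgeR with a size threshold of 1 on the log2 scale. With 1 library per group no spread within a group can be measured, and an additive fit over the 4 libraries, whose error term would be the interaction of siRNA and induction, was not run. Here log2 fold changes (prior count of 2) and exact binomial intervals of the ratio of counts were given. The calling procedure was run on simulated counts that held counting error only, for genes with a mean of at least 1 CPM. That simulation does not bear on spread between cultures or on genes with fewer reads. Stem-loops, 3′ ends and shared windows were read from GENCODE M21 on GRCm38. Named are Dnmt1, the replacement genes, the 15 most abundant replication-dependent genes, the 5 called members furthest from 0 each way in every comparison, and of each context list the 3 furthest from 0. Other members named were chosen after their values were seen. The members and lists were chosen with earlier results of these data known. Alternatives changed the scaling, the filter, the prior count, the call rule and the members summed.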

Additional observations from a re-analysis of the deposited data

Results flagged for a closer look

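The effect of the DNMT1 siRNA had opposite signs in the OB pair and in uninduced cells for 11 values whose counting intervals left out 0 in both pairs, among all members, their sums and Dnmt1. These were 5 members, 5 sums and Dnmt1 itself. With 1 library per group the difference itself was not tested, and the sums share genes with the members. Dnmt1 gave −1.01 uninduced and 0.13 in the OB pair, a log2 difference (OB pair minus uninduced pair) of 1.13. The difference was 0.31 for the replacement sum (−0.07 uninduced, 0.24 in the OB pair), 0.30 for that sum without H2afx (−0.08 and 0.21) and 0.23 for all members summed (−0.07 and 0.16). Without H3f3b the replacement sum gave −0.0022 uninduced, with an interval that held 0 (−0.030 to 0.026), so its opposite signs rest on that gene. The difference was 0.66 for H2afz (−0.13 and 0.53), 0.32 for H3f3b (−0.13 and 0.19) and 0.23 for H2afy (−0.08 and 0.15), whose uninduced interval held 0 with total count or upper quartile scaling. Among replication-dependent genes it was −0.62 for the H1 sum (0.32 and −0.30), which without Hist1h1c gave −0.71 and −0.28, and −0.70 for Hist1h1c (0.40 and −0.30). It was −1.49 for the 3 pseudogene rows summed (0.80 and −0.69) and −2.07 for the one called Hist1h2al (1.32 and −0.75).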

How the results depend on the processing

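With 1 library per group, no replicate could be left out, and precision is limited by the reads behind each gene. Each comparison set 1 library against 1, so no samples could be paired within it. A fit of siRNA and induction as additive terms over the 4 libraries would have paired them across the design, and was not run. The replication-dependent, replacement, short-ended and long-ended sums whose counting intervals left out 0 kept their sign under every alternative run on them. Of 236 values of sums in all, 4 turned the sign of a sum whose interval had left out 0, and any other change of sign was in a sum whose interval held 0. Without Hist1h1c, an alternative added after seeing the data, the H1 sum gave −0.71 in siDNMT1 against control and −0.40 in OB against control. Without Hist1h1c and Hist1h2bc, also added, the chromosome 13 genes from 23531050 gave −0.45 in OB against control and −0.40 in the library labelled siDNMT1_OB against siDNMT1. Of 660 values of named genes 651 kept their call and stayed within their counting interval. Without Hist1h1c the replication-dependent log2 ratio was −0.33 in siDNMT1 against control, 0.54 in OB against control and 0.40 in the library labelled siDNMT1_OB against siDNMT1. Without Hist1h1c and Hist1h2bc, an alternative added after seeing the data, it was −0.38, 0.23 and 0.26. Without members whose span overlaps another gene it was 0.97 in OB against control and 0.69 in the library labelled siDNMT1_OB against siDNMT1, where the median of the 15 members with a mean of at least 1 CPM was 0.71. There 49 members had more than 3 counts, and 19 of their values were positive and 30 negative. The replacement sum moved with upper quartile scaling to −0.040 in siDNMT1 against control and −0.70 in OB against control, and with total count scaling to 0.21 in the OB pair and −0.72 in OB against control. Without H3f3b it was −0.0022, 0.29, −0.85 and −0.55 in siDNMT1 against control, the OB pair, OB against control and the library labelled siDNMT1_OB against siDNMT1. Without H2afx it was −0.71 in OB against control and −0.41 in the library labelled siDNMT1_OB against siDNMT1. The alternatives on 3′ ends were added after seeing the data. Long ends without Hist1h1c and Hist1h2bc gave −0.31 in both siRNA comparisons and 0.62 in both inductions, and without members that overlap another gene's exons 1.27 in OB against control. Short ends gave −0.52 and −0.35 in the 2 inductions without members that overlap another gene's exons, and −1.67 and −1.26 without those sharing at least 50% of their windows. With an end threshold of 200 bases the long ends gave 0.04 in siDNMT1 against control, within the interval around 0. For calls in siDNMT1 against control, a mean CPM of at least 5 left 0 higher, and no filter gave 3 lower and a prior count of 0.5 gave 1. In the OB pair, 1 member was called lower with total count scaling, upper quartile scaling, no filter or a prior count of 0.5. In OB against control, 19 were called lower without a filter and 2 at a mean CPM of at least 5. In the library labelled siDNMT1_OB against siDNMT1, 12 were called lower without a filter, and 1 higher and 1 lower at a mean CPM of at least 5. Dnmt1 in siDNMT1 against control missed the size threshold with total count (−0.996) and upper quartile scaling (−0.98), and Hist1h2bq and Hist1h2an lost their call in OB against control with a prior count of 5 (0.997 and −0.94).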
